A study of Marmota monax with 20 samples.

Results

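A set of 150 liver-restricted genes was selected on measured values from the 30973 genes of the woodchuck (*Marmota monax*) count table. Counts were divided by a size factor per library, the median ratio to the mean library over the 16970 genes with a count in every library, and the result is called the normalised count. Each gene was scored by its lowest normalised count among the 6 livers, divided by its highest normalised count among the 14 libraries of other organs plus 5. A gene was kept if the score was at least 8, the lowest liver was at least 500 and the highest liver was at most 8 times the lowest, the identifier Monax4B019954 being left out by the rule. Of the 265 genes that met these limits, the 150 of highest score were taken. The height of these genes in liver and their low level elsewhere are therefore how they were chosen, and they are given below as a description without a test.

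Liver is built mostly of hepatocytes, which release the bulk of the proteins of blood plasma, among them albumin, clotting and complement factors and apolipoproteins. The same cells make bile acids and urea, store and release glucose, break down amino acids and clear drugs and hormones. Many of the genes behind these tasks are transcribed in hepatocytes and at very low levels in most other cells, and in rodents a number of them differ between females and males. The woodchuck is used as an animal model of chronic hepatitis B because it carries a related virus, the woodchuck hepatitis virus, that infects the liver.

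RNA was sequenced from organs of 6 adult woodchucks, all negative for the woodchuck hepatitis virus and with no treatment named in the labels. Females are the animals F6849, F9150 and F6852, and males are M4046, M4075 and M4091, the sex being read from the letter of the animal code. Liver was taken from all 6 animals, kidney and spleen from the 5 animals other than F6852, heart and lung from F6849, and pancreas and thymus from F9150. Each library is bulk RNA of an organ, so that fewer cells of a type and less RNA per cell cannot be told apart. The total count ran from 82874390 to 140252555 in livers, from 63682684 to 107167963 in kidneys and from 59487004 to 123267969 in spleens. Heart had 70253345 counts, lung 104383997, pancreas 83879613 and thymus 67284576, and with 1 library each these organs have no replicate.

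None of the 30973 identifiers was found in the gene table used for names. The 150 genes are therefore given by identifier, their functions are not stated, and hepatocyte markers were not looked up, so the label of the set rests on the libraries named liver alone. Gene lengths were not used, so a higher count of a gene than of another is not a higher number of transcripts, and levels are compared for the same gene between libraries.

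The 150 genes held 26.3% ± 0.926 (SD, n = 6) of all counts of a liver library. The share was 27.3% in liver F6849, 24.6% in F9150, 26.0% in F6852, 26.5% in M4046, 27.0% in M4075 and 26.3% in M4091. The 6 livers were close to each other, with F9150 lowest. In kidney the same genes held 0.0380% ± 0.00786 (SD, n = 5) of the counts and in spleen 0.0245% ± 0.00270 (SD, n = 5). The single libraries had 0.0150% in heart, 0.0189% in pancreas, 0.0340% in thymus and 0.0459% in lung. Every library outside liver was thus under 0.05%, and the order of the organs within that range is not resolved where there is 1 library.

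**Figure D1:**
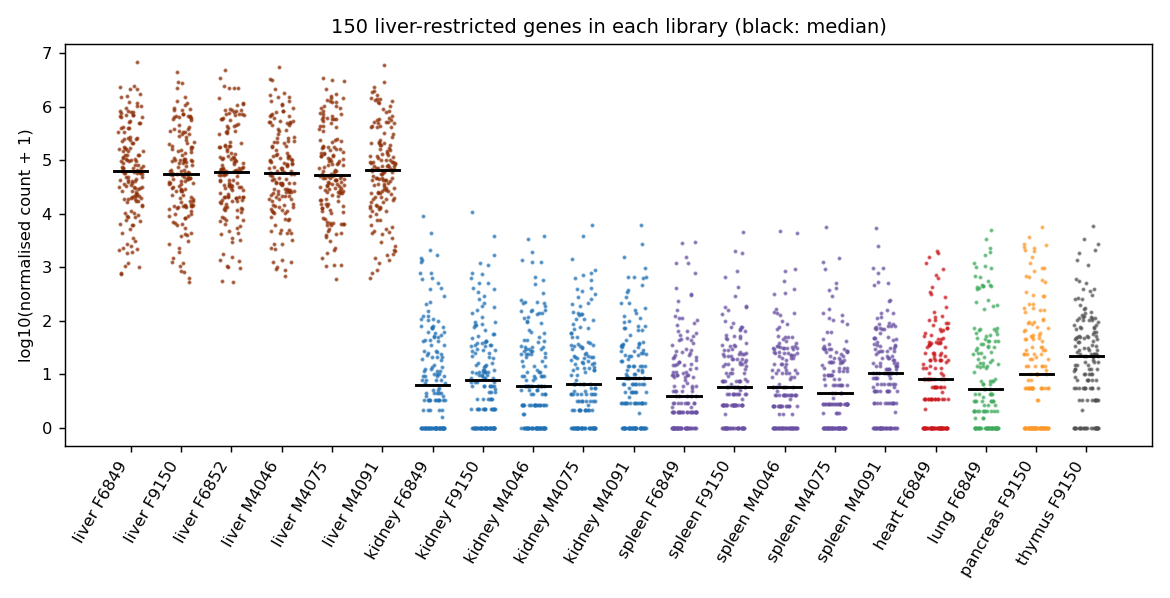
Level of the 150 liver-restricted genes in each of the 20 libraries, as log10 of the normalised count plus 1, where each point is a gene and the black line is the median of the library. All 150 points of each liver lie above the medians of the 14 other libraries, where 26 to 52 genes lie at 0.

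Within liver, a few genes carried much of the set. The 10 genes with the highest counts held 48.3% of the counts of the 150 genes in livers. The mean normalised count over 6 livers ran from 971 to 5205575 with a median of 56983. Monax4B034570 had the highest mean, and its normalised count was 3477802 in the lowest liver, 5198773 at the median and 6750143 in the highest. In the 14 other libraries it ran from 318 to 3341, with a median of 1070, so that all of them held traces of it. Monax4B030289 was next in liver, from 2264721 through a median of 2664105 to 3292218. It was at 2884, 854, 4415, 1466 and 2531 in the spleens and at 4.10, 56.4, 42.0, 57.5 and 32.8 in the kidneys, in the order F6849, F9150, M4046, M4075 and M4091, so that the spleens and kidneys did not overlap.

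The score ran from 30.5 to 7272 with a median of 298. It was at least 1000 for 40 genes and at least 100 for 110. Monax4B009700 had the highest score, with normalised counts of 846897 in the lowest liver, a median of 1064342 and 1538129 in the highest, against 111 in thymus, the highest of the other libraries. Monax4B037180 followed with 117728 in the lowest liver, a median of 178626 and 275979 in the highest, against 11.6 in thymus. Both genes were listed at 0 in some libraries outside liver. At the lower end of the set, Monax4B036718 had a score of 32.4 and Monax4B012825 of 30.5, and the next genes, not taken, were Monax4B020640 with 30.3 and Monax4B034976 with 29.9. The values on both sides of the limit are nearly equal, and in Monax4B034976 the score is set by pancreas alone, where it had 7950 against at most 166 in the other libraries outside liver.

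**Figure D2:**
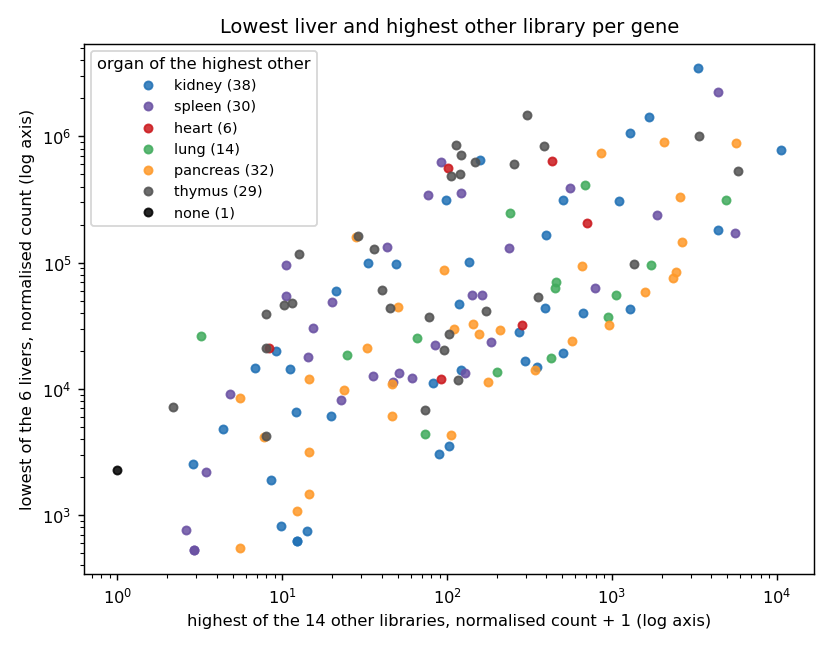
Lowest normalised count among 6 livers against the highest normalised count plus 1 among the 14 other libraries, both on log axes, for the 150 genes, coloured by the organ of that highest library. Genes with the most counts outside liver had their highest value in several organs, and 1 gene without any count outside liver lies at the left edge.

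Outside liver, most of the 150 genes were present as traces. The number listed at 0 was 38 to 47 in the kidneys, 31 to 45 in the spleens, and 26 in thymus, 41 in lung, 47 in heart and 52 in pancreas. No gene of the set was at 0 in any liver. For 46 genes no library outside liver was at 0, and for 22 genes at least 10 of these 14 libraries were. The highest of the 14 libraries had under 100 counts for 73 genes and at least 1000 for 27. Only 1 gene, Monax4B043370, named after its values were seen, had 0 counts in all 14. Its normalised count in the livers was 2283 at the lowest, 4310 at the median and 6038 at the highest, which is at least 25379-fold higher on average than the 3 counts over the 14 libraries that a count of 0 allows. As each of the mates of a read pair seems to be counted by itself, a limit of 3 read pairs would lower that bound, and such limits cover counting error only.

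The organ with the highest value outside liver was kidney for 38 genes, pancreas for 32, spleen for 30, thymus for 29, lung for 14 and heart for 6, where kidney and spleen have 5 libraries each to reach the highest value and the other organs 1. Among the 27 genes with at least 1000 counts in some library outside liver, that library was pancreas for 8, kidney for 7, lung for 5, spleen for 4, thymus for 3 and heart for 0. The highest traces were thus spread over organs.

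Among genes whose highest library outside liver was that of the organ named, Monax4B033960 had in pancreas a normalised count of 5613 against 0 to 63.8 in the other 13 libraries outside liver, and Monax4B013240 had 2673 against 1.64 to 448. In thymus, Monax4B005391 had 5836 against 411 to 3371, and Monax4B026818 had 3358 against 17.9 to 1928. Both thymus genes had their next value in lung. In lung, Monax4B000941 had 4896 against 7.49 to 2085, and Monax4B010508 had 1729 against 0 to 920. In heart, Monax4B010344 had 707 against 7.49 to 99.0, and Monax4B033665 had 432 against 24.8 to 138. The lowest liver was far above each of these values, from 95234 for Monax4B010508 to 1015309 for Monax4B026818. These organs have a single library each, so how far the values vary between animals was not measured.

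Each gene's level outside liver was also set against its own mean in liver. The median over the 150 genes was 43.0 to 74.0 per 1000000 of the liver level in the kidneys, 25.3 to 91.6 in the spleens, 164 in thymus, 121 in pancreas, 63.7 in lung and 46.4 in heart. Spleen M4091 was the highest of the spleens, and kidneys and spleens overlapped. The names of the columns give 8 lanes of the sequencer. The kidneys whose lane also held a liver were at 74.0 (M4046) and 51.1 (M4075) on this scale, and those in other lanes at 43.0 (F6849), 49.8 (F9150) and 67.7 (M4091), so that they overlapped. Of the spleens, those in a lane with a liver were at 25.3, 53.3, 29.4 and 91.6 (F6849, F9150, M4075 and M4091) and the other, M4046, at 52.5. Heart was in a lane with a liver, and lung, pancreas and thymus were not. The part of the lane in the traces was not tested.

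The traces were concentrated in few genes. The 10 genes with the highest counts in a library held between 72.6% of the counts of the set, in lung, and 87.1%, in spleen M4075, outside liver.

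The livers differed in the level of these genes, within the limit of 8-fold that the rule sets. The coefficient of variation over 6 livers had a median of 27.5% (quartiles 19.2% and 41.5%) for the 150 genes and of 17.0% (quartiles 11.8% and 25.1%) for the 9407 other genes that meet the same limits on lowest liver and range. These others include the 115 genes that met every limit of the rule but had a lower score. The highest liver was less than 2 times the lowest for 72 of the 150 genes (48%) and for 76.5% of the other genes, and at least 4 times for 22 of the 150. The wider spread was seen at low and middle counts. With a mean normalised count of 1000 to 10000, the median coefficient was 39.7% for 23 genes of the set and 16.7% for 6721 others. From 10000 to 100000 it was 28.1% for 69 genes of the set and 17.5% for 1696 others. Over 100000 the medians were 22.8% for 57 genes of the set and 22.9% for 96 others. At the highest counts the medians were thus close, but some of the 96 are among the 115 that also met the rule. The set was not compared there with genes that fail the rule alone.

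**Figure D3:**
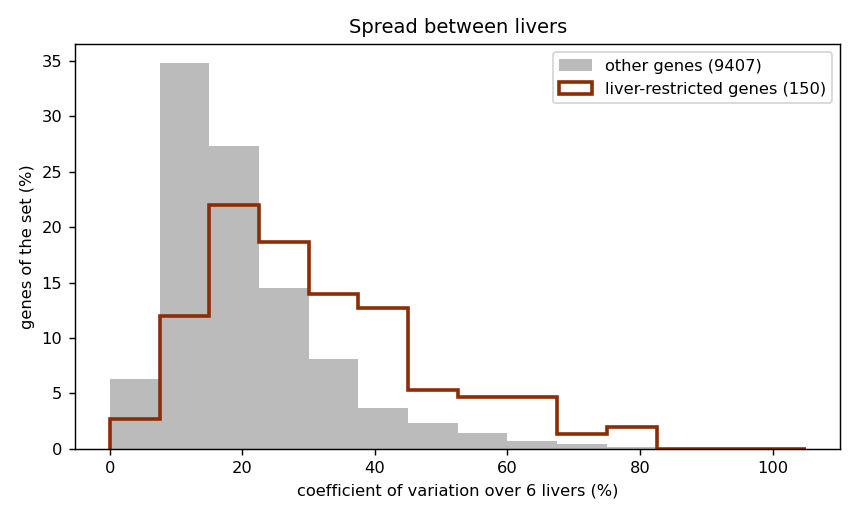
Coefficient of variation over 6 livers, in percent, for the 150 liver-restricted genes (line) and for 9407 other genes that pass the same limits in liver (grey), as the percentage of the genes of each set. The line lies to the right of the grey bars, with medians of 27.5% and 17.0%.

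The steadiest gene was Monax4B016337, with normalised counts of 709577, 661121 and 735060 in females F6849, F9150 and F6852 and of 716327, 646619 and 659757 in males M4046, M4075 and M4091. Its coefficient of variation was 5.33%, and that of Monax4B002852 was 5.97%. Females and males overlapped in both. The most variable gene was Monax4B014936, at 20690, 13589 and 11938 in the same females and 28064, 84939 and 47206 in the same males, with a coefficient of 81.0%. All its males lay above all its females, and M4075 was the highest. Monax4B035525 followed with 79.8% and is described with the comparison of the sexes.

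The livers of a sex resembled each other in these genes. Each gene's log2 level was taken less its mean over the 6 livers, and the deviations of pairs of livers were correlated across the 150 genes, which are not independent replicates. The coefficient was 0.0902 to 0.433 for the 3 pairs of females and 0.179 to 0.5259 for the 3 pairs of males. It was -0.700 to -0.308 for the 9 pairs of a female and a male. Since the deviations of a gene sum to 0 over the livers, coefficients between livers are pushed below 0, and the means of these 3 kinds of pairs were 0.144, 0.160 and -0.433 for the 9407 other genes, against 0.313, 0.334 and -0.545 for the set. Livers F9150 and F6852 were sequenced in the same lane and had a coefficient of 0.416, while F6849 and F6852, from different lanes, had 0.433. By gene, F9150 was the lowest liver for 49 of the 150 and each other liver for 8 to 27, whereas each liver was the highest for 21 to 29.

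The comparison of female and male livers asks whether the level of the liver-restricted genes depends on sex, which the rule did not use. At a false discovery rate of 0.05 over all genes, 10 of the 150 genes (6.67%) passed edgeR's quasi-likelihood test, against 1.27% of the 17547 genes tested. Higher in females were 7 (background 0.712%) and higher in males were 3 (background 0.559%), and for all 10 the 3 females and the 3 males did not overlap. With 3 livers of each sex, a gene that passes is likely to show no overlap, so this is no further support. The difference in the shares called was not tested. The median absolute log2 fold change was 0.37 over the 150 genes, 0.22 over the 9407 other genes and 0.28 over all genes tested.

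Of the genes higher in females, Monax4B022324 had the largest difference. Its normalised count was 7206, 9896 and 12121 in females F6849, F9150 and F6852 and 2733, 4049 and 2513 in males M4046, M4075 and M4091. The log2 fold change of males against females was -1.69 (SE 0.26, adjusted p = 0.0424 by the quasi-likelihood test of edgeR, Benjamini-Hochberg adjusted). Outside liver this gene had 2 counts in kidney M4091 and 0 in the other 13 libraries. Monax4B032351 was at 2102, 2245 and 3301 in the females and 905, 1112 and 767 in the males, a log2 fold change of -1.49 (SE 0.23, adjusted p = 0.0424 by the same test). It too was listed at 0 in 13 of the 14 libraries outside liver. The 7 genes had log2 differences of 0.69 to 1.69 and adjusted p from 0.0253 to 0.0495 by that test, so that the whole group lay close to the threshold.

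Of the genes higher in males, Monax4B035525 had the largest difference. It was at 19173, 11336 and 10893 in females F6849, F9150 and F6852 and at 71866, 35077 and 77269 in males M4046, M4075 and M4091, a log2 fold change of 2.12 (SE 0.36, adjusted p = 0.0493 by the quasi-likelihood test of edgeR, Benjamini-Hochberg adjusted). The gap between its highest female and its lowest male was narrower than the spread among its males. Monax4B010508 was at 171249, 95234 and 103329 in the females and at 461502, 418431 and 438701 in the males, a log2 fold change of 1.801 (SE 0.25, adjusted p = 0.0335 by the same test). Its males were close to each other. The remaining gene, Monax4B039603, named after its values were seen, was at 3147, 4362 and 3541 in the females and 13532, 10607 and 11244 in the males (log2 fold change 1.64, SE 0.17, adjusted p = 0.0198 by the same test), and outside liver it had 6 counts in pancreas and 0 in every other library.

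**Figure D4:**
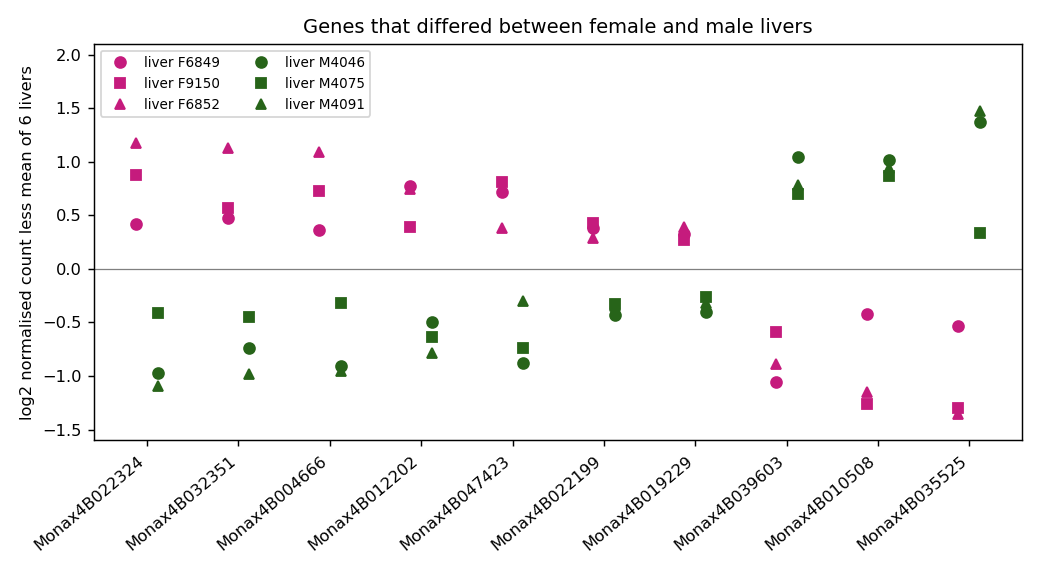
Log2 normalised count less the mean of the 6 livers for the 10 liver-restricted genes that passed the test between female livers (pink) and male livers (green), with a marker for each animal. The 7 genes on the left are higher in females and the 3 on the right in males, and for each gene the females and males do not overlap.

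With the genes that passed included, all females lay above all males for 25 of the 150 genes (background 11.2% of all genes tested). All males lay above all females for 31 of the 150 (background 13%). These counts are given beside the background without a test. At an unadjusted p under 0.05, 58 of the 150 (38.7%) passed edgeR's test, against 18.3% of all genes tested.

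The number of genes that passed rests on single livers. It was 6 without F6849, 2 without F9150 and 3 without M4091, where 133, 82 and 126 of all genes passed. It was 0 by edgeR's quasi-likelihood test without F6852, without M4046 or without M4075, where 9, 20 and 22 of all genes passed. At an unadjusted p under 0.05, 41, 43 and 43 of the 150 passed edgeR's test in these 3 fits, beside 2513, 2429 and 2691 of all genes, and DESeq2 called 24, 31 and 26, beside 4.23%, 4.46% and 4.81%. With all livers DESeq2 called 36 of the 150 and 6.15% of all genes. Of the 36, 17 were higher in females (background 2.99%) and 19 in males (background 3.15%), and all 10 genes were among them. The 10 genes also kept their direction without any 1 liver, which follows from the lack of overlap and is no further support. No lane held livers of both sexes, so lane and sex cannot be told apart within liver. A fit of 16 libraries of liver, kidney and spleen called 6 of the 150 (4%) and 3.37% of all genes by edgeR's quasi-likelihood test. With the lane as a term, chosen after seeing the data, it called 0 of the 150 and 0 of all genes. At an unadjusted p under 0.05 by edgeR's test, 11 of the 150 (7.33%) and 10.1% of all genes passed there. In it 6 of the 10 kept their direction while Monax4B010508 turned to a log2 fold change of -2.72. This fit reads the lane through kidney and spleen too, where these genes are mostly traces. It has 5 residual degrees of freedom and cannot decide the part of the lane in liver.

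Genes left out of the set bear on this comparison. Of the 115 genes that met the limits but had a lower score, 4 (3.48%) passed the test between the sexes. Another 19 genes met the other limits, but their highest liver was more than 8 times the lowest. Of these, 18 had a score at or above the lowest of the set. Of the 19, 3 (15.8%) passed, all higher in males. Monax4B045841, one of the 19 with the highest scores, was at 211978, 47622 and 77226 in the females and 393237, 471945 and 185593 in the males, where F6849 lay above M4091 (adjusted p = 0.220 by edgeR's quasi-likelihood test). Monax4B001347 was at 361990, 169692 and 323047 in the females and 130094, 70446 and 44468 in the males, without overlap (adjusted p = 0.100 by the same test). Neither of them is among the 3 that passed. The limit on range thus removed genes that vary widely between livers, and the share of the set that differed by sex holds for the genes that remained.

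Kidney and spleen were compared because the rule used only the highest of the 14 other libraries and not the order of these organs. Enough counts for the test were present for 71 of the 150 genes and too few for 79. Of the 71, 43 (60.6%) passed edgeR's quasi-likelihood test at a false discovery rate of 0.05, while 64.8% of the 19918 genes tested did. Of the 71, 27 passed and were higher in kidney (33.5% of all genes tested) and 16 passed and were higher in spleen (31.3%). A gene can enter the test through counts in 1 of the organs alone, so the share of the set is set beside the background and nothing is read from it. Of the 71, 24 passed with a difference over 4-fold toward kidney (13.4% of all genes tested) and 11 toward spleen (11%). Of the same 71, 28 passed without overlap of kidneys and spleens (51.6% of all genes tested). The same limit applies to these shares.

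Monax4B047070 had the largest difference toward kidney. Its normalised count was 9061, 10628, 1890, 6102 and 6253 in the kidneys of F6849, F9150, M4046, M4075 and M4091, and 5.95, 24.6, 20.8, 8.85 and 70.7 in their spleens. Every kidney was far above every spleen, and the log2 fold change of spleen against kidney was -8.05 (SE 0.80, adjusted p = 1.2e-05 by the quasi-likelihood test of edgeR, Benjamini-Hochberg adjusted). The lowest liver, at 781028, was still above the highest kidney by a wide margin, and this gene gave the highest normalised count of any gene of the set outside liver. Monax4B024465 was at 776, 343, 1281, 580 and 93.6 in the kidneys and at 0.992, 1.64, 0, 1.77 and 24.8 in the spleens, in the same order (log2 fold change -6.81, SE 1.17, adjusted p = 0.000513 by the same test). Kidney M4091 was its lowest kidney and spleen M4091 its highest spleen. It was also at 1188 in pancreas, within the range of its kidneys.

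Toward spleen, Monax4B046014 had the largest difference. It was at 409, 132, 553, 162 and 247 in the spleens of F6849, F9150, M4046, M4075 and M4091 and at 0, 2.51, 0, 4.47 and 2.81 in their kidneys (log2 fold change 7.18, SE 0.83, adjusted p = 3.35e-05 by the quasi-likelihood test of edgeR, Benjamini-Hochberg adjusted). Kidney was thus at or near 0 in all 5 animals. Monax4B024451 was at 1203, 1876, 130, 287 and 977 in the spleens and at 11.7, 6.27, 6.71, 14.5 and 1.87 in the kidneys, in the same order (log2 fold change 6.73, SE 0.86, adjusted p = 6.48e-05 by the same test). Its spleens spanned more than 10-fold and still did not overlap the kidneys. Both genes were far higher in liver, the lowest being 388921 for Monax4B046014 and 237043 for Monax4B024451.

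**Figure D5:**
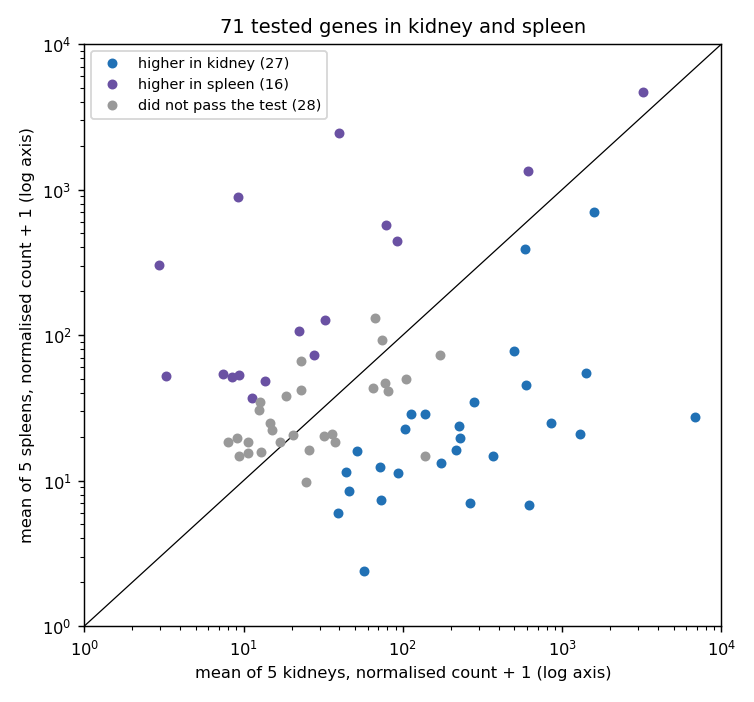
Mean normalised count plus 1 over 5 kidneys and over 5 spleens, both on log axes, for the 71 liver-restricted genes that had enough counts for the test, with the diagonal of equal values. Blue marks the 27 genes higher in kidney, purple the 16 higher in spleen and grey the 28 that did not pass.

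Only 1 gene, Monax4B047423, named after its values were seen, passed both comparisons. It was at 42540, 45372 and 33565 in the livers of the females F6849, F9150 and F6852 and at 14065, 15453 and 20936 in those of the males. In the spleens it was at 13.9, 21.3, 97.6, 60.2 and 68.8 and in the kidneys at 7.02, 5.01, 8.39, 10.1 and 11.2, in the order used above. The females were above the males in liver and the spleens above the kidneys, in both cases without overlap, and its highest value outside liver was 339 in pancreas.

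The choice of genes was repeated without each library, and the genes chosen were then read in the library that had been left out. Of 150 genes chosen without a liver, 145 to 148 met every limit in that liver, and at most 1 failed a limit on level while 2 to 5 failed the limit on range. Of 150 chosen without a kidney, all 150 met the limits in it for each of the 5 kidneys, and of those chosen without a spleen 149 or 150 did. Without thymus all 150 did, without lung 149, without heart 146 and without pancreas 145. The genes chosen without heart or pancreas thus included some that were high there, and with heart 1 gene had its lowest liver at 0.00066 of its heart value plus 5. Without all 5 kidneys, 395 genes met the limits in place of 265, and 111 of the 150 stayed in the set. Without all 5 spleens 278 genes met them and 140 stayed. Kidney was thus the organ whose removal admitted most genes, though pancreas, heart, lung and thymus were each removed as 1 library.

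The identifiers are numbered, and 6 of the 150 genes (4%) had another gene of the set within 5 numbers, while 3.28% of all genes had one of the set that near. The share of the set was thus close to that of all genes, and no position in the genome was read from the numbers.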

How the data were processed

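Raw read counts per gene were deposited as 1 table of 30973 genes of the Monax4B annotation and 20 libraries, made by the authors by mapping with version 1.6.1 of the gem-tools rna-mapper and quantification with gemtools 1.7.1, whole numbers without normalization. Of the counts above 0 of the liver-restricted genes 86.5% were even, so each of the mates of a read pair seems to be counted by itself. The number of columns that belong to no sample was 0. Between 2 livers the chi-square of the counts was at least 172 per degree of freedom, far above sampling noise, and no library was merged. Totals per library ran from 59487004 to 140252555.

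The rule, the gene set and the tests were chosen with earlier results of these data known, and nothing that those results showed is used as support. Differences were tested in R 4.3.3 with edgeR 4.0.16 (filterByExpr, TMM factors, robust quasi-likelihood fit, Benjamini-Hochberg adjustment over all genes tested, threshold 0.05), the 6 livers by sex and 5 kidneys against 5 spleens without a block. Each animal is a replicate. The script was tested on simulated counts. Kidney and spleen of an animal deviated together (correlations of 0.201, 0.140, 0.180, 0.323 and 0.121 over 19918 genes, each over 0.1), so the animals pair them, and the animal as a block was an alternative. The others were DESeq2 1.42.0, observation weights, median-ratio (RLE) factors, library sizes alone, no filter, 16 libraries in 1 fit, other constants and limits of the rule, and each library left out. DESeq2 with a liver left out, the lane as a term and the rule without an organ were added after seeing the data. Scores, shares and spread were computed in Python 3.11.15, and figures drawn with matplotlib 3.10.9.

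By the rule for naming, at most 2 genes are given per comparison and direction: the highest scores, the highest mean counts in liver, the genes next to the limit of 150, the largest fold changes among genes that passed each test, the smallest and largest coefficients of variation, the highest levels in heart, lung, pancreas and thymus among genes whose highest library outside liver is that organ, and the highest scores among genes left out by range. Others are marked as named after their values were seen. Sequences and lists of marker genes were not used here, since the identifiers were matched to no names.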

Additional observations from a re-analysis of the deposited data

Results flagged for a closer look

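In 44 sets of values per organ, 3 held a library far from the others by Dixon's test, which by chance marks about 1 set in 20. The number of the 150 genes listed at 0 was 47 in kidney F6849 and 38 to 40 in the other 4 kidneys. Monax4B047070 had a normalised count of 70.7 in spleen M4091 and of 5.95 to 24.6 in the other spleens. Monax4B024465 had 24.8 in spleen M4091 and 0 to 1.77 in the other spleens. Both genes are higher in kidney than in spleen, and M4091 was also the spleen with the highest median of the 150 genes, 91.6 per 1000000 of their level in liver. The cause was not tested.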

How the results depend on the processing

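Between female and male livers, 10 of the 150 genes passed (6.67%, and 1.27% of all genes). DESeq2 called 36 (24%, and 6.15% of all genes) and observation weights 38 (25.3%, and 8.50% of all genes). The 16 libraries in 1 fit called 6 (4%, and 3.37% of all genes), with 16.7% of the set and 18.0% of all genes at an unadjusted p under 0.05 by edgeR. That fit with the lane as a term called 0, with 11 at an unadjusted p under 0.05 by edgeR (7.33%, and 10.1% of all genes). Without each liver in turn the number was 0 to 6 by edgeR, beside 0.0501% to 0.742% of all genes. At an unadjusted p under 0.05 by edgeR it was 41 to 61 (27.3% to 40.7%), beside 13.6% to 17.8% of all genes. By DESeq2 it was 43, 31, 24, 31, 26 and 39 (F6849, F9150, F6852, M4046, M4075 and M4091 left out), beside 4.23% to 6.86% of all genes. All 10 genes were called by DESeq2 with and without each liver. With RLE factors 8 of the 10 were called, and with library sizes alone or no filter 9. With the lane as a term Monax4B010508 turned to a log2 fold change of -2.72 (adjusted p = 0.737 by edgeR's quasi-likelihood test, 4.43e-34 to 0.737 over its 19 alternatives), and 4 of the 10 changed direction in all. That fit reads the lane through kidney and spleen too, where these genes are mostly traces, so it cannot decide the part of the lane in liver. The cause was not tested. Between kidney and spleen, 43 of the 71 genes tested passed (60.6%, and 64.8% of all genes). The number was 74 in the fit of 16 libraries (49.3%, and 62.5% of all genes). That fit with the lane as a term called 55 (36.7%, and 48.1% of all genes), and 36 of the 43 were among them. In both fits liver lets all 150 genes through the filter. Under the other alternatives the number was 38 to 62, which is 42.0% to 62.5% of the genes of the set tested, beside 52.5% to 64.9% of all genes. With the animal as the replicate block it was 41, of which 38 are among the 43, and the 4 genes named for their fold change there passed with the block and in all 17 alternatives, with adjusted p of at most 0.00646 by edgeR or DESeq2. The genes that meet the limits of the rule numbered 265, and 174 with library sizes alone, while the number of the 150 genes still chosen was 111 to 150 under the alternatives. The median coefficient of variation between livers stayed between 26.2% and 29.1%. Heart, lung, pancreas and thymus have 1 library each, and depth limits the comparison of traces, where 79 of the 150 genes could not be tested between kidney and spleen.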
